A study of Ovis aries with 30 samples.

Results

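Interferon-stimulated genes were followed in 15 newborn Romney lambs, in perirenal brown adipose tissue (BAT) and thyroid tissue. The set was a list of 45 gene symbols, taken as they stood, and members were the rows of the count table that carried these symbols. Of the 45, 41 were found among the 28524 genes of the table, and OAS1, OAS2, USP18 and IFI27 were not analysed here. In the study, 6 lambs were kept indoors at 4 °C for 2 days (cold), 6 were kept at 20 to 22 °C for 2 days (ambient temperature, AT), and 3 were sampled at the start (control). Both tissues came from each lamb, which gave 30 libraries. No group carried an altered gene or received a drug, the breed was the same throughout, and males and females were mixed, with no sex stated per lamb in the labels. Each lamb was the heavier of a twin pair born outdoors and had its own dam. Controls were 2 days younger than the lambs of both treatments and had not spent those days indoors, so that age, housing and treatment cannot be told apart in comparisons with the controls. Cold and AT lambs were of the same age.

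Interferons are secreted proteins that cells release when they sense viral or other foreign nucleic acid. Type I interferons bind a receptor made of IFNAR1 and IFNAR2, and the kinases JAK1 and TYK2 then activate a transcription factor complex that holds STAT2 and IRF9 and switches on interferon-stimulated genes. Their products block viral entry, replication and translation, sense viral RNA, or feed back on the pathway itself. Most are kept low in unstimulated tissue, and blood-borne interferon can induce them in many organs at once.

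Libraries held between 31556500 and 37025998 counts in BAT, while thyroid libraries held between 25062784 and 30124871. However, 2 unnamed genes took 43.8% to 76.5% of the counts of a BAT library and 5.18% to 27.8% of those of a thyroid library. All other genes thus held 8093700 to 18276329 counts in BAT and 18098434 to 26929601 in thyroid tissue. The 41 members took between 3155 and 50997 counts of a BAT library and between 11627 and 131624 counts of a thyroid library. Values below are normalized counts, that is, counts divided by a size factor from the reference genes ACTB, RPL19 and HUWE1. A gene was tested in a tissue if it had at least 10 reads in at least 10 of 14 libraries, which left 40 of the 41 members in each tissue. ISG20, an exonuclease that degrades viral RNA, did not pass. The study's own analysis used 2 of the 3 controls, and Control 2 was left out of the main tests here too, while its values are given. The 12 treated libraries could meet the filter alone, and the 2 controls used could not. ISG20 had 26.7 and 4.68 normalized counts in BAT of the controls used and 2.15 in Control 2. Treated lambs had 3.08 to 16.7 there, except 33.5 in Cold 1, a cold lamb. In thyroid tissue the controls used had 5.43 and 38.4 and Control 2 had 3.16. Treated lambs had 1.90 to 15.7 there, except 102 in Cold 1. In BAT, Control 2 was at or under both other controls in most members, but it was above them in MX1, CXCL10, LGALS3BP, IFI6 and SP110. The normalized counts of 8 brown adipocyte markers summed to 28876 to 367856 per library in BAT, with the highest in Control 2, and to 2074 to 23512 in thyroid tissue. Those of 9 thyroid follicle markers summed to 217 to 4357 in BAT, and thyroid libraries held 1318434 to 5863018. Both tissue labels thus matched their markers. In bulk tissue, fewer cells of a type and less RNA per cell cannot be told apart.

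Several members were neighbours in the Oar_rambouillet_v1.0 genome. MX2 (chr1:284814590-284870736) lay beside MX1 (chr1:284878392-284913087), both on the plus strand. IFIT2, IFIT3, IFIT1 and IFIT5 lay in a row on the plus strand from chr22:12744674 to chr22:12811639. CMPK2 and RSAD2 were neighbours on chromosome 3, HERC5 and HERC6 on chromosome 6, IFI44L and IFI44 on chromosome 1, and PARP9, DTX3L and PARP14 on chromosome 1. Reads that map to several places were counted for each, so similar copies such as MX1 and MX2 or the IFIT genes can share reads. Exons of IFIT1, IFIT5, STAT2, ZBP1 and SP110 overlapped another gene on the opposite strand, and strand use was not stated, so these 5 values can hold reads of the partner.

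Most members were higher on average in treated lambs than in the 2 controls used, in both tissues and at both temperatures, and a single cold lamb, Cold 1, had the highest level of the list in both tissues. In BAT, all 12 treated lambs were above both controls in 25 of the 40 members, against 5.61% of the 14905 genes tested, and above all 3 controls in 23 members, against 3.75% of genes. In thyroid tissue, the counts were 21 members against 3.77% of the 16122 genes tested, and 17 members against 2.23% with all 3 controls. Members without such a gap in either tissue were ADAR, DTX3L, TNFSF10, NMI, STAT2, PARP12, IFI35, TRIM25, SAMHD1 and IFIT5.

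**Figure D1:**
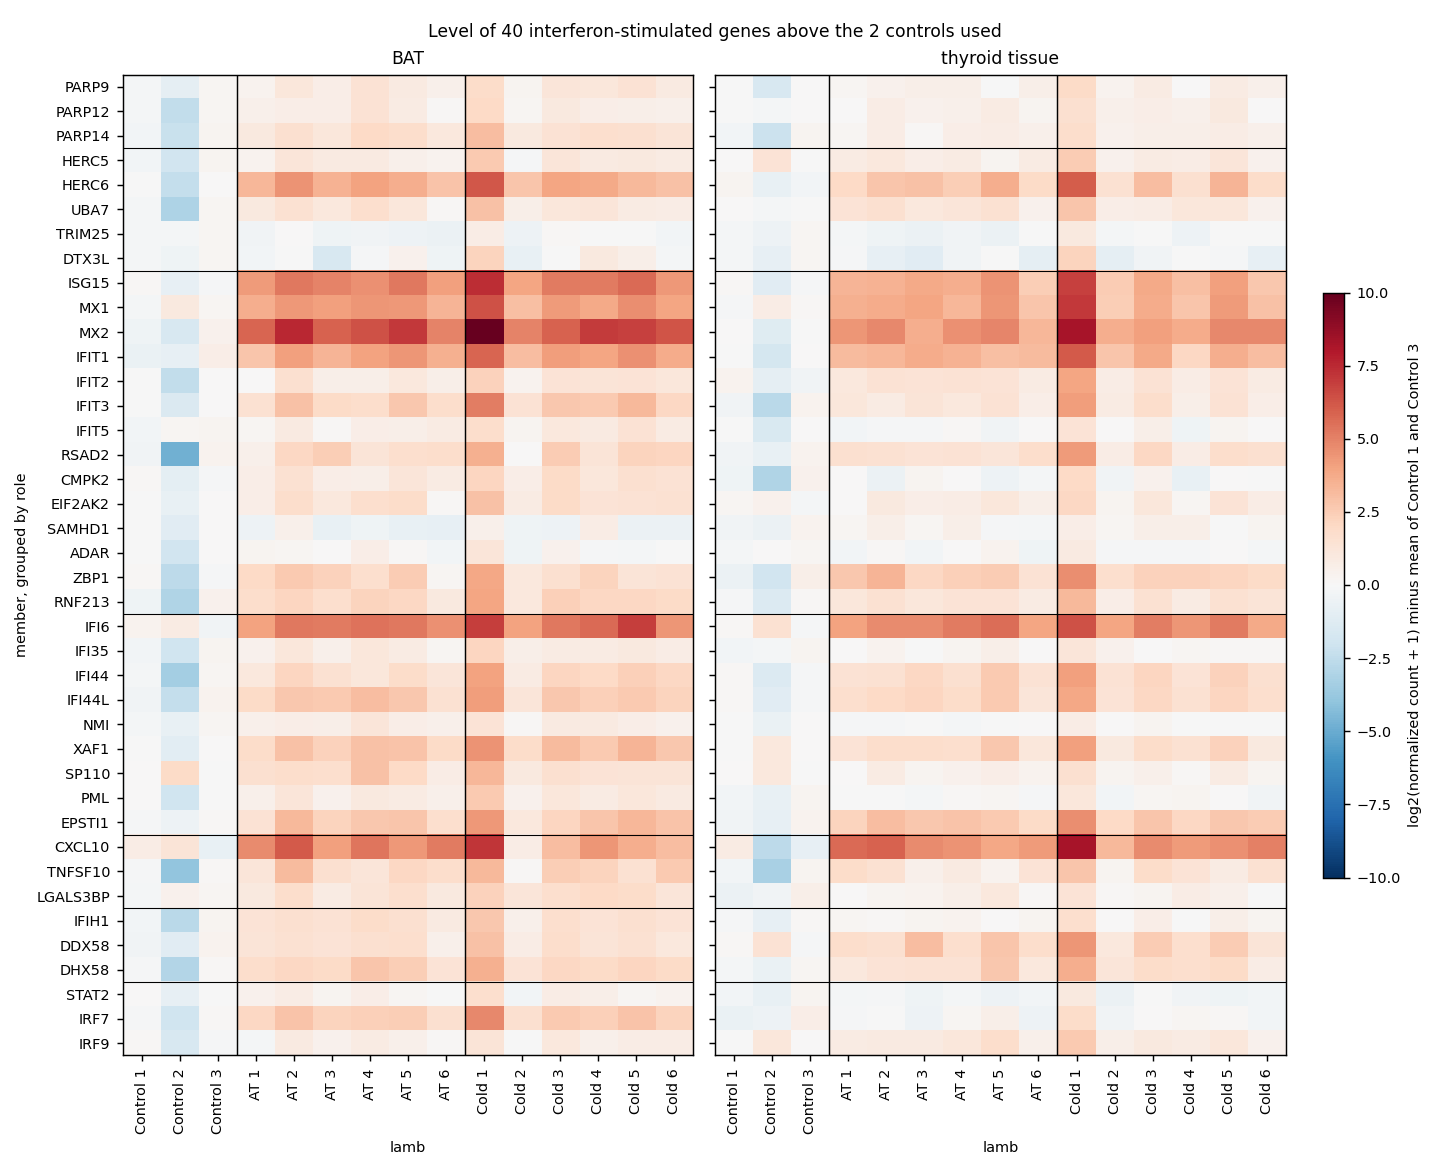
Each cell is log2(normalized count + 1) of a member in a lamb minus its mean in Control 1 and Control 3, for 40 members in BAT (left) and thyroid tissue (right). Lambs are in columns by group and members in rows by role, with black lines between groups and roles. The columns of the 12 treated lambs are mostly red in both tissues, the column of Cold 1 is the darkest, and ISG15, MX1, MX2, IFI6 and CXCL10 form the darkest rows.

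The level of the whole list was summarised per lamb as the median over the 40 members of log2(normalized count + 1) above the mean of the 2 controls. In BAT it was 3.02 in Cold 1, 0.77 to 1.72 in the other 5 cold lambs and 0.88 to 1.78 in the 6 AT lambs. In thyroid tissue it was 2.698 in Cold 1, between 0.53 and 1.20 in the other cold lambs and between 0.64 and 1.14 in the AT lambs. Cold 1 stood alone, and the other 11 treated lambs overlapped between the groups in both tissues. The same median over all genes tested ranged in treated lambs from -0.33 to 0.28 (BAT) and from -0.42 to -0.17 (thyroid tissue).

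Among the antiviral effectors, ISG15, a ubiquitin-like protein that is attached to other proteins during infection, had 13.4 and 10.9 normalized counts in BAT of Control 1 and Control 3, and 6.45 in Control 2. Its lowest, median and highest values in BAT were 218, 363.6 and 501 in AT lambs and 199, 480.4 and 2160 in cold lambs. The groups did not overlap with the controls, and AT and cold lambs overlapped with each other except for Cold 1. ISG15 was upregulated in BAT in cold (log2FC 5.86 ± 1.05 SE, adjusted p = 0.0199) and at AT (4.91 ± 1.01, adjusted p = 0.0114, both edgeR). In thyroid tissue it had 23.9 and 21.2 normalized counts in the controls used and 9.49 in Control 2, against 131, 274 and 531 in AT lambs and 133, 261 and 2613 in cold lambs. There it was upregulated in cold (4.82 ± 1.39, adjusted p = 0.0305), while at AT the log2FC of 3.72 ± 1.31 had an adjusted p of 0.0599 in edgeR, and of 0.00321 without Cold 1. Cold 1 was singled out for its high values in these same members. Here and below, p-values without it are descriptions and not separate tests.

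MX1, a dynamin-like GTPase that traps viral nucleocapsids, followed the same order. BAT of the controls used held 86.9 and 118 normalized counts and that of Control 2 held 200.1. AT lambs had 1085, 1911 and 2143 as lowest, median and highest, and cold lambs 813, 1745 and 8424. Thyroid tissue held 127 and 152 in the controls used, 237 in Control 2, between 948 and 3063 in AT lambs and between 771 and 18313 in cold lambs, and every treated lamb was above every control in both tissues. MX1 was upregulated in BAT in cold (log2FC 4.75 ± 0.87, adjusted p = 0.0201) and at AT (4.07 ± 0.83, adjusted p = 0.0105) and in thyroid tissue in cold (4.93 ± 1.45, adjusted p = 0.0343, edgeR).

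MX2, its neighbour and a relative that acts at the nuclear pore, was nearly absent from the controls. In BAT it had 1 count in Control 1, 0 in Control 2 and 4 in Control 3, against normalized counts of 93.8, 222 and 576 in AT lambs and 96.5, 303 and 4454 in cold lambs. The groups did not overlap, but with so few control counts the log2FC of 8.54 in cold (adjusted p = 0.0615, edgeR) is not a firm size, and neither is that of 6.80 at AT (adjusted p = 0.0547). Without Cold 1, which was singled out from values such as these, MX2 passed in BAT in both comparisons (adjusted p = 0.00976 and 0.00317). In thyroid tissue the controls used had 12 and 9 counts, or 13.03 and 11.9 normalized counts. AT lambs there had 130.3, 304 and 389 and cold lambs 164, 302 and 4025. MX2 was upregulated in thyroid tissue in cold, by a log2FC of 6.14 ± 1.68 (adjusted p = 0.0254), which became 4.40 ± 0.60 (adjusted p = 0.00243) without Cold 1.

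IFI6, a protein of mitochondria and endoplasmic reticulum that restrains cell death and viral replication, was called in all 4 comparisons with the controls, as was IFIT1. BAT of the controls used held 65.5 and 42.1 normalized counts of IFI6, and that of Control 2 held 92.5. AT lambs had 861, 2026 and 2302 and cold lambs 859, 2407 and 6389, the highest being Cold 5, just above 6320 in Cold 1. In thyroid tissue the controls used held 103 and 87.3, Control 2 held 282, AT lambs 1447, 2524 and 4705 and cold lambs 1290.0, 2622 and 7831. The log2FC was 5.93 ± 0.93 in cold (adjusted p = 0.0108) and 5.04 ± 0.89 at AT (adjusted p = 0.00594) in BAT, and 5.08 ± 0.85 in cold (adjusted p = 0.0032) and 4.82 ± 0.84 at AT (adjusted p = 0.00303) in thyroid tissue. Per kilobase of exon, IFI6 was the most abundant member in treated lambs, with a mean of 2924 normalized counts per kilobase in BAT and 3455 in thyroid tissue. MX1 (924) and ISG15 (879) came next in BAT, and IRF9 (1253) and MX1 (1250.0) in thyroid tissue, ahead of LGALS3BP (901) and ISG15 (768). Without Cold 1 IFI6 stayed first (2520.0 and 2938), but IRF9 (662) came before ISG15 (637) in BAT, and LGALS3BP (837) before MX1 (682) and ISG15 (448) in thyroid tissue.

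IFIT1, which binds viral RNA that lacks the host cap, had 20.1 and 49.2 normalized counts in BAT of the controls used and 17.2 in Control 2, against 221, 447 and 675 in AT lambs and 268, 551 and 1849 in cold lambs. Its log2FC in BAT was 4.35 ± 0.78 in cold (adjusted p = 0.0192) and 3.65 ± 0.75 at AT (adjusted p = 0.0108). In thyroid tissue it had 22.8 and 25.1 in the controls used, 6.33 in Control 2, 201, 237 and 326 in AT lambs and 102, 257 and 1780.0 in cold lambs, with log2FC of 4.34 ± 1.10 in cold (adjusted p = 0.0176) and 3.38 ± 1.04 at AT (adjusted p = 0.0362). No treated lamb overlapped with a control. Its neighbour IFIT3, which stabilises IFIT1 on RNA, had 50.8 and 55.4 in BAT of the controls used, 19.4 in Control 2, 156, 193 and 417 in AT lambs and 145, 341 and 1875 in cold lambs, also without overlap, but did not pass the test (log2FC 3.41 in cold, adjusted p = 0.074, and 2.21 at AT, adjusted p = 0.129). In thyroid tissue IFIT3 had 153 and 241 in the controls used, 28.5 in Control 2 and between 291 and 638 in all treated lambs but Cold 1, which had 3555. Without Cold 1, IFIT3 passed in all 4 comparisons with the controls (log2FC 2.56, 2.21, 1.09 and 1.05 in BAT cold, BAT AT, thyroid cold and thyroid AT).

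RSAD2 (viperin), which makes a chain terminator of viral RNA synthesis, was low and overlapped more. In BAT it had 21.4 and 35.1 normalized counts in the controls used and 0 in Control 2, against 40.1, 93.3 and 157 in AT lambs and 27.9, 128 and 339 in cold lambs. The lowest cold lamb, Cold 2, lay between the controls used. Thyroid tissue held 8.69 and 14.6 in the controls used, 6.33 in Control 2, 27.01, 33.9 and 39.9 in AT lambs and 19.7, 38.6 and 234 in cold lambs, with no overlap. No comparison of RSAD2 passed the test (adjusted p between 0.0658 and 0.222, edgeR), and without Cold 1 both thyroid comparisons did (log2FC 1.52 in cold and 1.54 at AT).

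Of the other effectors, CMPK2, a mitochondrial nucleotide kinase beside RSAD2, passed in BAT in cold (log2FC 1.56 ± 0.37, adjusted p = 0.0447). That call was lost without Cold 1, and also without Cold 3, Cold 4, Cold 5, Cold 6, AT 3 or AT 5. RNF213, a very large ubiquitin ligase with antimicrobial activity (1.79 ± 0.59, adjusted p = 0.0486), and ZBP1, a sensor of Z-form nucleic acid that triggers cell death (2.91 ± 0.91, adjusted p = 0.0379), passed in thyroid tissue in cold. The call of RNF213 was lost with scaling over all genes tested (TMM or median-of-ratios). The adenosine deaminase ADAR had 1917 and 2087 normalized counts in BAT of the controls used and between 1502 and 4649 in treated lambs, and SAMHD1, which depletes nucleotides, had 785 and 870 against 460 to 1378. In both genes the groups overlapped in both tissues. EIF2AK2 (PKR), which stops translation when it binds double-stranded RNA, and IFIT2 and IFIT5, relatives of IFIT1, also passed in no comparison, and without Cold 1 IFIT2 passed in both thyroid comparisons.

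**Figure D2:**
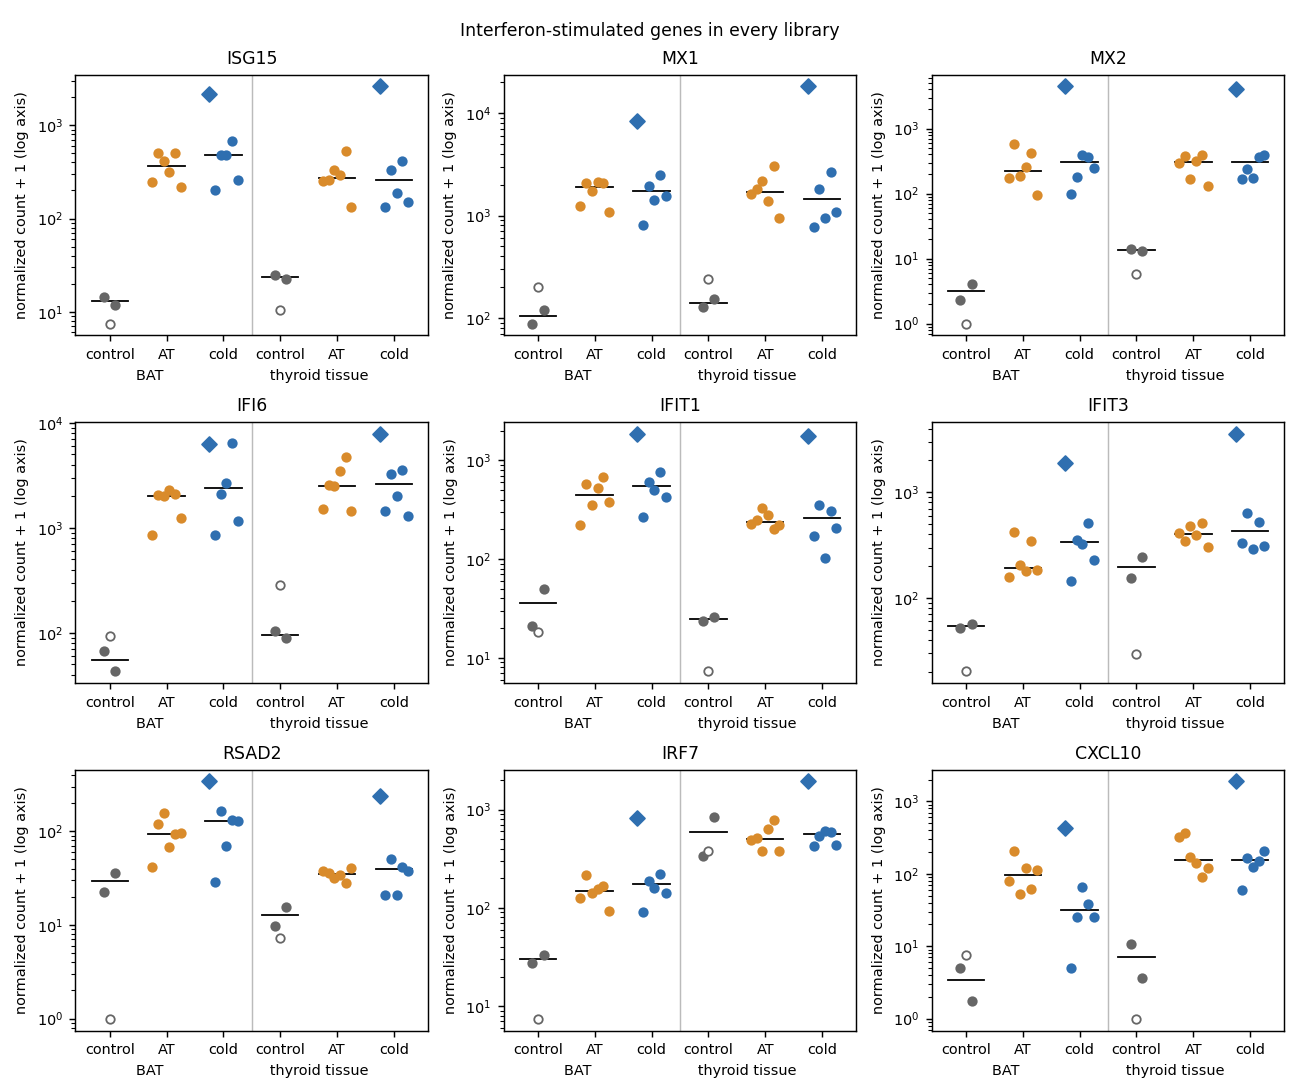
Normalized count + 1 on a log axis for 9 members in every library, with BAT on the left and thyroid tissue on the right of each panel. Grey circles are controls (open: Control 2), orange circles AT lambs and blue marks cold lambs, with Cold 1 as a diamond, and black bars are medians, without Control 2. For ISG15 in BAT the controls used lie near 12, AT lambs between 218 and 501, and Cold 1 at 2160, while IRF7 in thyroid tissue shows controls within the range of the treated lambs.

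Among the cytoplasmic RNA sensors, DHX58 (LGP2) and IFIH1 (MDA5) passed in BAT, and DDX58 (RIG-I) passed in neither tissue. Without Cold 1, DDX58 passed in BAT at AT (adjusted p = 0.0251) and in thyroid tissue in cold (0.0333) and at AT (0.0159). DHX58 had 98.9 and 115 normalized counts in BAT of the controls used and 12.9 in Control 2, against 272, 418 and 723 in AT lambs and 282, 430.0 and 1248 in cold lambs. Its log2FC was 2.34 ± 0.53 in cold (adjusted p = 0.0416) and 2.12 ± 0.53 at AT (adjusted p = 0.0225). IFIH1 passed at AT in BAT (1.46 ± 0.43, adjusted p = 0.0456) but had an adjusted p of 0.0653 in cold, with a log2FC of 1.65 ± 0.44. The AT call was lost when any of Cold 3 to Cold 6 or AT 1 to AT 5 was left out. In thyroid tissue the log2FC of IFIH1 was 0.67 ± 0.36 in cold and 0.21 ± 0.35 at AT, and neither passed.

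None of the 3 transcription factors tested passed against the controls, and IRF7, which amplifies interferon production, differed between the tissues. In BAT it had 26.7 and 32.0 normalized counts in the controls used and 6.45 in Control 2, against 91.1, 146 and 216 in AT lambs and 90.4, 173 and 828 in cold lambs. The groups did not overlap, and the log2FC of 3.17 ± 0.78 in cold had an adjusted p of 0.0569 and that of 2.32 ± 0.75 at AT an adjusted p of 0.0651 (edgeR). Without Cold 1 these were 2.42 ± 0.41 (adjusted p = 0.0122) and 2.32 ± 0.40 (adjusted p = 0.00517). In thyroid tissue, however, the controls already held 339, 375 and 843, against 375.0, 501 and 786 in AT lambs and 420.0, 565 and 1931 in cold lambs, so the groups overlapped there. STAT2 and IRF9, which form the complex that binds interferon-stimulated promoters, had log2FC between -0.31 and 1.32 over both tissues, and neither passed, although IRF9 did in thyroid tissue at AT without Cold 1 (adjusted p = 0.0226).

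In the ISG15 and ubiquitin pathway, 1 of 5 members passed. HERC6, an ISG15 ligase in many mammals, had 14.7 and 16.4 normalized counts in BAT of the controls used, 2.15 in Control 2, between 113 and 362 in treated lambs other than Cold 1, and 1252 in Cold 1. It passed in BAT at AT (log2FC 3.78 ± 1.04, adjusted p = 0.0354), and in cold its log2FC was 4.47 ± 1.07 with an adjusted p of 0.0542. HERC5, UBA7, which charges ISG15, TRIM25, which activates RIG-I, and DTX3L, the partner of PARP9, did not pass. Without Cold 1, HERC6 passed in all 4 comparisons with the controls and UBA7 at AT in both tissues (adjusted p = 0.044 in BAT and 0.0127 in thyroid tissue). TRIM25 had 1281 and 1613 in BAT of the controls used and between 932 and 1570.0 in treated lambs other than Cold 1, which had 2445. PARP9, PARP12 and PARP14, enzymes of ADP-ribosylation, passed nowhere, with log2FC of 0.73 to 1.83 in BAT, and of 0.42 to 0.87 in thyroid tissue. Without Cold 1, PARP14 passed in BAT in cold (adjusted p = 0.0421) and at AT (adjusted p = 0.0117).

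Of the secreted or death-inducing members, CXCL10, a chemokine that attracts T cells, varied most between lambs. In BAT it had 3, 3 and 1 counts in the controls, and normalized counts of 51.5, 95.0 and 206 in AT lambs and 4.08, 30.9 and 432 in cold lambs. The lowest cold lamb, Cold 2, lay within the range of all 3 controls, and no comparison of CXCL10 in BAT passed (adjusted p = 0.137 in cold, and 0.0711 at AT or 0.00929 without Cold 1). In thyroid tissue it had 9, 0 and 2 counts in the controls, against normalized counts of 88.2, 154 and 370.0 in AT lambs and 59.3, 156 and 1880.0 in cold lambs, without overlap. CXCL10 was upregulated there in cold (log2FC 6.04 ± 1.71, adjusted p = 0.0283) and at AT (4.95 ± 1.64, adjusted p = 0.0481), sizes that rest on few control counts. With 9 and 2 counts in the controls used, CXCL10 entered the test only through the treated libraries, where it was high. Its AT call was lost with TMM or median-of-ratios scaling. LGALS3BP, a secreted glycoprotein, passed in BAT in cold (1.73 ± 0.35, adjusted p = 0.0273) and at AT (1.29 ± 0.34, adjusted p = 0.0258), and TNFSF10 (TRAIL), which induces cell death, passed nowhere.

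Among the 9 other interferon-induced members, IFI6, IFI44, IFI44L, XAF1 and EPSTI1 passed at least once, and PML, SP110, IFI35 and NMI did not. Without Cold 1, SP110 passed in BAT at AT (adjusted p = 0.0153). XAF1, which favours cell death, rose in BAT in cold (log2FC 3.29 ± 0.65, adjusted p = 0.0273) and at AT (2.53 ± 0.62, adjusted p = 0.0221). EPSTI1 rose in BAT at AT (2.495 ± 0.74, adjusted p = 0.047) and in thyroid tissue in cold (3.14 ± 0.74, adjusted p = 0.0119) and at AT (2.62 ± 0.72, adjusted p = 0.0198). IFI44L rose in BAT at AT (2.48 ± 0.67, adjusted p = 0.0318) and in thyroid tissue in cold (2.40 ± 0.66, adjusted p = 0.0236) and at AT (1.97 ± 0.64, adjusted p = 0.0425), and IFI44 in thyroid tissue in cold (2.54 ± 0.75, adjusted p = 0.0313).

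Over the whole list, with calls at an absolute log2FC of at least 1 and an adjusted p under 0.05 in edgeR, 8 of 40 members were upregulated in BAT in cold, where 0.577% of all genes tested were called higher, and 11 of 40 at AT, against 2.82% of genes. In thyroid tissue 11 of 40 were upregulated in cold, against 1.89% of genes, and 5 of 40 at AT, against 1.83%. No tested member was downregulated, and ISG20 was not tested. The 4 comparisons share the 2 controls, and 17 of 40 members passed in at least 1 of them, against 4.49% of the 14403 genes tested in both tissues. The median log2FC of the members was 1.82 in cold and 1.46 at AT in BAT, beside -0.10 and -0.03 over all genes, and 1.37 in cold and 1.04 at AT in thyroid tissue, beside -0.28 and -0.28. Without Cold 1 the thyroid median in cold was 0.84, with 33 members above 0. Log2FC was above 0 in 39 and 37 members in BAT and in 39 and 31 in thyroid tissue, for cold and AT in this order. With TMM scaling the median over all genes moved from -0.28 to 0.02 and 0.05 in thyroid tissue, and 40 and 38 members were then above 0.

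The number of calls rested on single libraries. Without Cold 1, calls went to 15 and 22 in BAT (0.473% and 2.93% of genes called higher) and to 18 and 20 in thyroid tissue (1.69% and 1.89%), for cold and AT in this order. All main calls but that of CMPK2 in BAT in cold were among them. Since Cold 1 was singled out for its values in these members, the added calls are no separate evidence. With a single control left, there were 0 calls without Control 3 in each of the 4 comparisons, and without Control 1 there were 0 in BAT and 1 and 1 in thyroid tissue. The AT count was 7 in BAT without AT 5, and in thyroid tissue 3 without Cold 3, Cold 5, AT 1 or AT 5 and 2 without AT 2 or AT 4. DESeq2 on the same libraries called 28 and 20 members in BAT (2.79% and 5.19% of genes called higher) and 21 and 13 in thyroid tissue (2.91% and 3.03%). With all 3 controls, edgeR called 30 and 24 members in BAT (2.7% and 5.75%) and 20 and 12 in thyroid tissue (2.38% and 2.12%).

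No member passed the test between cold and AT, the only comparison at the same age. The edgeR test called 0 of 40 members in BAT, where 0.275% of genes were called in either direction, and 0 of 40 in thyroid tissue, where 0% were called. At an unadjusted p under 0.05 there were 6 of 40 members in BAT, against 12.3% of genes, and 1 of 40 in thyroid tissue, against 5.4%, which is near or below the share over all genes. DESeq2 called 0 in both tissues. The median log2FC of the members, cold against AT, was 0.46 in BAT and 0.48 in thyroid tissue, and it was above 0 in 38 and 40 members. The largest log2FC were those of MX2, 1.74 ± 0.83 in BAT (adjusted p = 0.421) and 1.68 ± 0.79 in thyroid tissue (adjusted p = 0.909).

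Cold 1 was above the mean of the other 5 cold lambs in every member tested. Leaving it out thus had to lower the cold side, and the values without it are a description and not a test. Without Cold 1, the median log2FC was 0.10 in BAT and -0.04 in thyroid tissue, with 24 and 15 of 40 members above 0 and 0 calls in both (2 and 0 members at an unadjusted p under 0.05). The log2FC of MX2 became -0.15 ± 0.43 in BAT and -0.07 ± 0.32 in thyroid tissue, that of MX1 -0.07 ± 0.26 and -0.34 ± 0.34, and that of ISG15 0.20 ± 0.30 and -0.30 ± 0.35. CXCL10 in BAT then had the largest difference of the list, lower in the 5 cold lambs by a log2FC of -1.77 ± 0.52 (adjusted p = 0.213).

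**Figure D3:**
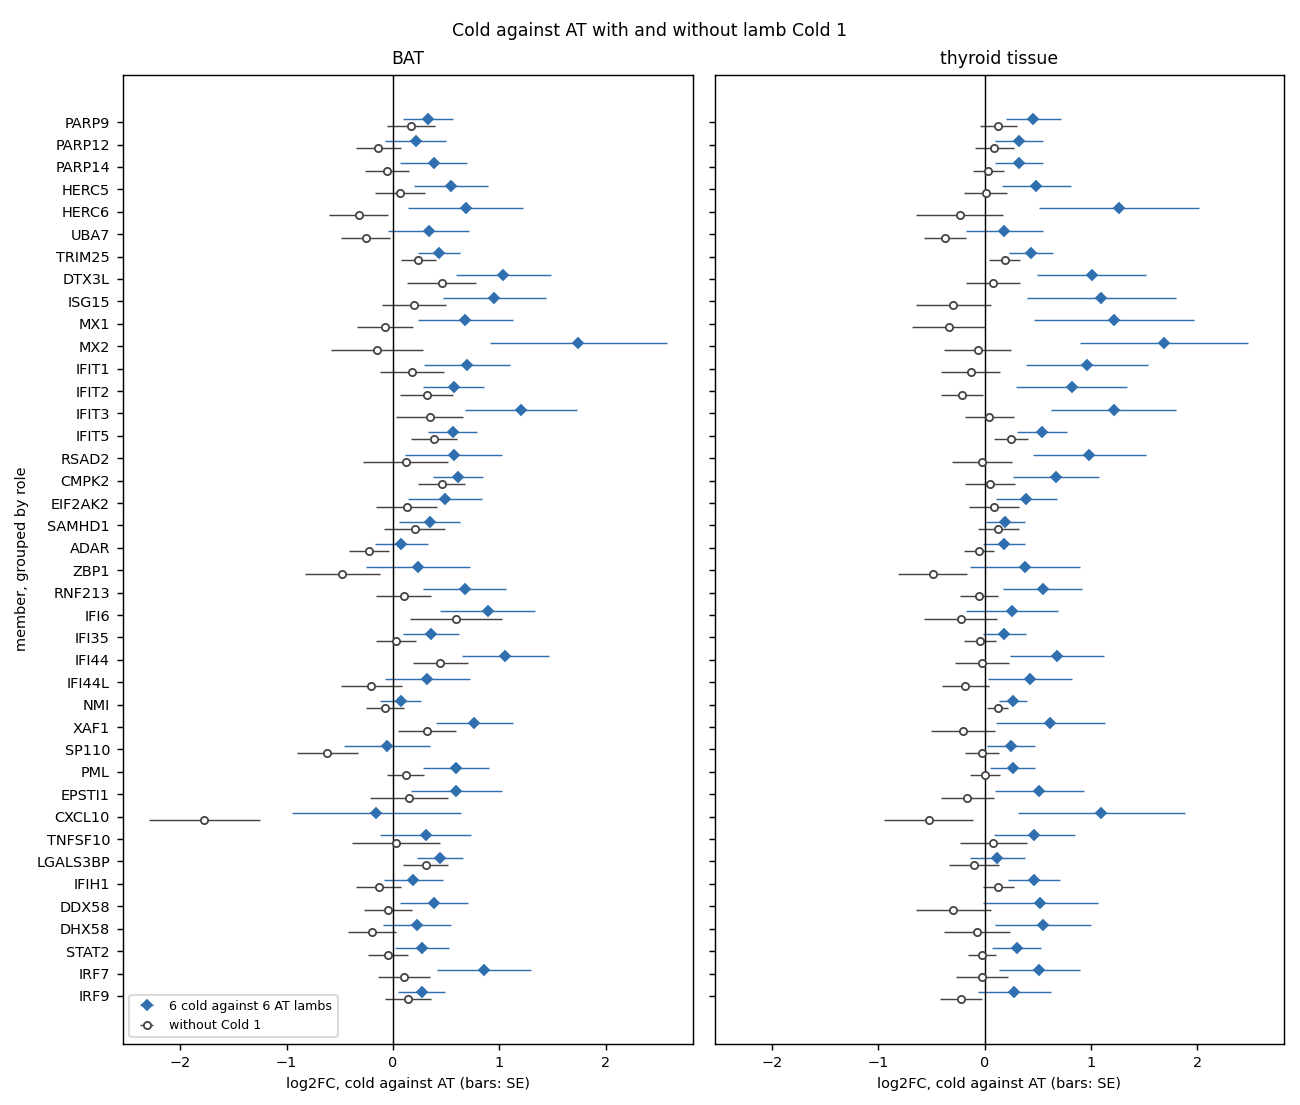
Log2FC of cold against AT for 40 members in BAT (left) and thyroid tissue (right), with bars of 1 SE. Blue diamonds use 6 cold and 6 AT lambs and open circles leave out Cold 1. With Cold 1, 38 members in BAT and all 40 in thyroid tissue lie right of 0, and without it 24 and 15 do.

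Cold 1 had the highest value of the 12 treated lambs in 38 of 40 members in BAT, where it was highest in 6.53% of genes, and in 40 of 40 in thyroid tissue, against 4.39%. The exceptions in BAT were IFI6 and SAMHD1. Its value was over 2 times that of the next treated lamb in 20 members in BAT and in 25 in thyroid tissue. This was not counted over all genes. Relative to the mean of the other 5 cold lambs, Cold 1 was higher by 1.55 (IRF9) to 17.4 times (MX2) in BAT, with a median of 3.18 times. In thyroid tissue it was higher by 1.28 (SAMHD1) to 15.2 times (MX2), with a median of 3.78. HERC6 (7.19 and 11.9 times) and CXCL10 (14 and 13.5 times) were also far up in BAT and thyroid tissue, whereas LGALS3BP (1.59 and 1.99 times) was not.

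At the low end, Cold 2 was the lowest treated lamb in 19 members in BAT and in 8 in thyroid tissue, and AT 6 in 12 and 7. Their list levels were 0.77 and 0.53 (Cold 2) and 0.88 and 0.64 (AT 6), all above the controls used, which lay within -0.15 to 0.15 (BAT) and -0.09 to 0.09 (thyroid tissue). The median over all genes in BAT was also low, at -0.24 in Cold 2 and -0.33 in AT 6. With it subtracted, the list level in BAT was 1.01 in Cold 2 and 1.21 in AT 6, which was then above AT 1 (1.15). Behind Cold 1, the second place in BAT went most often to Cold 5 and AT 4 (10 members each) and AT 2 (9), and in thyroid tissue to AT 5 (16) and Cold 3 (10). Lowest and second places were not counted over all genes.

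The level of the list in BAT went with that in thyroid tissue of the same lamb. Over the 12 treated lambs Pearson's r was 0.909 and Spearman's rho 0.818. Without Cold 1 the values were 0.713 and 0.764 over 11 lambs. Within groups, r was 0.958 over the 6 cold lambs, Cold 1 included, and 0.734 over the 6 AT lambs. After subtracting the median of all genes in each library, r was 0.896 with Cold 1 and 0.546 without it, and 0.314 within AT lambs. These are descriptions of few lambs, since the points share the scaling of their libraries and the members were chosen with results known.

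**Figure D4:**
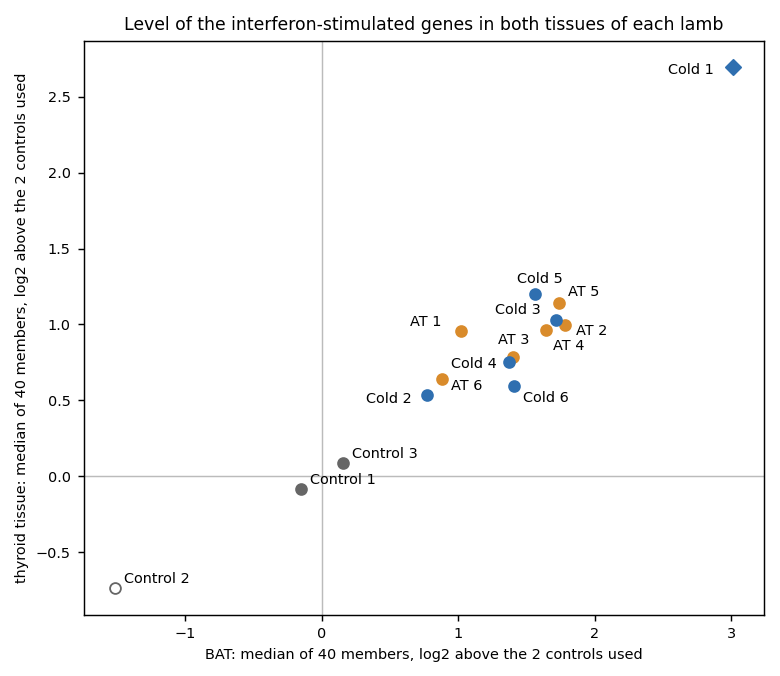
Level of the 40 members in each lamb, as median log2(normalized count + 1) above the mean of Control 1 and Control 3, in BAT (horizontal) and thyroid tissue (vertical). Grey marks are controls (open: Control 2), orange AT lambs and blue cold lambs. Cold 1 lies alone at 3.02 and 2.698, and the other 11 treated lambs lie at 0.77 to 1.78 in BAT, and at 0.53 to 1.20 in thyroid tissue, with both groups mixed.

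For single members, log2(normalized count + 1) in BAT was correlated with that in thyroid tissue over the 12 treated lambs, with a permutation test and adjustment over the 14403 genes tested in both tissues. All 40 members had r above 0, with a median of 0.815 against 0.184 over all genes, and 7 were called, against 0.882% of genes. These were MX1, RNF213, PARP14, ISG15, DTX3L, ZBP1 and IFI44L. For MX1, r was 0.938 (rho 0.804, permutation p = 0.0001 for r, adjusted p = 0.0272), and without the 2 lambs farthest from the median in BAT, Cold 1 and Cold 2, r was 0.711. For DTX3L, which had the lowest adjusted p, r was 0.900 (rho 0.860, permutation p = 3e-05, adjusted p = 0.0173) and 0.739 without Cold 1 and AT 3. In the 7 members called, r without the 2 farthest lambs was between 0.705 and 0.787. It was between 0.936 and 0.979 within cold lambs, Cold 1 included, and between 0.638 and 0.955 within AT lambs. Over all 40 members these r went down to -0.325 (CMPK2), 0.662 (SAMHD1) and -0.93 (CMPK2).

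Without Cold 1, 0 members were called, although 39 of 40 kept r above 0, with a median of 0.557, and 17 had an unadjusted permutation p under 0.05. With Spearman's rho over 12 lambs, 0 were called, 26 had an unadjusted p under 0.05, and the median rho was 0.636. Calls also went to 1 without Cold 2, Cold 5, Cold 6 or AT 2, to 2 without Cold 3 or AT 6, to 3 without AT 1 or AT 3 and to 4 without AT 4. Members that did not go together in the 2 tissues once Cold 1 was left out included NMI (r = -0.175), CMPK2 (0.074) and TRIM25 (0.119). Among the members themselves, the median r over 780 pairs was 0.797 in BAT and 0.806 in thyroid tissue over 12 lambs. Without Cold 1 it was 0.332 in thyroid tissue, and r was over 0.5 in 68.8% of pairs in BAT and 33.8% in thyroid tissue, against 23.1% and 16.4% of pairs among every 7th gene tested.

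Whether the change from the controls differed between the tissues was tested with both tissues of each lamb in 1 edgeR fit, with the lamb as a block. IRF7 had a larger change in BAT than in thyroid tissue, by a log2 difference of 2.57 ± 0.37 in cold (adjusted p = 0.00873) and of 2.40 ± 0.37 at AT (adjusted p = 0.00597). IFIH1 also had a larger change in BAT at AT (1.25 ± 0.29, adjusted p = 0.0387). These were the only members called, 1 of 40 in cold against 0.312% of genes and 2 of 40 at AT against 1.44%. Among the members not called, the largest differences were those of MX2 (2.25 ± 0.78 in cold, adjusted p = 0.241) and ISG15 (1.497 ± 0.47, adjusted p = 0.2).

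IRF7 stayed called without Cold 1 (2.48 ± 0.38 and 2.40 ± 0.38, adjusted p = 0.015 and 0.00734), and no member was called without Control 3. IFIH1 was not called without Cold 1 (1.25 ± 0.30, adjusted p = 0.0536), nor without Cold 3, Cold 5, Cold 6, AT 2, AT 4, AT 5 or Control 1. The lamb block mattered, and without it 0 members were called. For IRF7 the thyroid controls used differed, at 339 and 843 normalized counts. The median difference over all genes was 0.23 in cold and 0.27 at AT, and 0.56 and 0.50 over the members.

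Few genes upstream of the members were called. Of 16 tested genes of interferon signalling in BAT, 0 were called in cold or at AT by edgeR. Of 17 in thyroid tissue, SOCS3, an inhibitor of cytokine receptors, was the only one called and was lower in cold (-1.56 ± 0.36, adjusted p = 0.0108) and at AT (-1.85 ± 0.36, adjusted p = 0.00388), where 6.15% and 5.98% of genes were called lower. The receptor subunit IFNAR1 had log2FC between -0.74 and -0.40 and IFNAR2 between -0.08 and 0.38, and neither was called. IFNAR1 had an adjusted p of 0.0344 in thyroid tissue at AT with a log2FC of -0.73, short of the fold threshold. Among 13 tested genes of nucleic acid sensing in BAT none was called, and among 12 in thyroid tissue TRAF3 was called lower in both comparisons. A single gene of each list is near these shares.

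The few interferon transcripts that could be looked up by symbol were hardly seen. Of 9 interferon genes listed, 3 were in the table, namely IFNG, IFNK and IFNE, and the others were not analysed here. Their summed normalized count was 0 to 1.11 in BAT, and 0 to 2.03 in thyroid tissue, over all libraries, and it was 0 in both tissues of Cold 1. A level this low was at the limit of this depth.

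Other interferon-stimulated genes outside the list gave a mixed picture. Of 23 tested in each tissue, only RTP4, a chaperone of receptors that also restrains viruses, was called. RTP4 had 37.4 and 21.1 normalized counts in BAT of the controls used and between 61.1 and 300 in treated lambs, and 17.4 and 23.8 against 62.2 to 692 in thyroid tissue. It rose in BAT at AT (log2FC 2.28 ± 0.63, adjusted p = 0.0333) and in thyroid tissue in cold (3.36 ± 0.94, adjusted p = 0.0249) and at AT (2.74 ± 0.91, adjusted p = 0.0453). The median log2FC of the 23 was 0.47 in cold and 0.52 at AT in BAT, beside -0.10 and -0.03 over all genes. In thyroid tissue it was 0.07 and -0.01, beside -0.28 and -0.28. The normalized counts of 25 such genes in the table summed to 30091 in BAT and 38761 in thyroid tissue of Cold 1. The other treated lambs had at most 18322 and 23706, and the controls used at most 11540 and 25320.

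Genes outside the list whose values were among those most like the members over the 12 treated lambs were ZNFX1, GPATCH11, BST-2B, TRIM21, SHISA5, RTP4, ZC3HAV1, UBE2L6 and CGAS. Likeness was Pearson's r with the median of the members, averaged over both tissues, and lay between 0.872 (CGAS) and 0.974 (ZNFX1). Cold 1 weighed on this order too. Over the other 11 lambs the mean r was 0.856 for RTP4, 0.843 for ZNFX1 and 0.830 for GPATCH11, but 0.499 for ZC3HAV1.

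Markers of immune cells were higher in some treated libraries. The normalized counts of 9 macrophage markers summed to 1688 and 2651 in BAT of the controls used, 1667 to 4299 in AT lambs, 1336 to 10765 in Cold 2 to Cold 6 and 4668 in Cold 1, with 0 of 9 called higher in cold or at AT and CD68 called lower at AT. In thyroid tissue they summed to 1829 and 1955 in the controls used, 3055 to 6342 in AT lambs, 3479 to 8760 in Cold 2 to Cold 6 and 9600 in Cold 1, and 5 of 9 were called higher in cold (C1QA, C1QC, CSF1R, TYROBP and AIF1) and 3 of 9 at AT (C1QA, C1QC and AIF1), while CD14 was called lower at AT. Over all genes tested in thyroid tissue, 1.89% were called higher in cold and 1.83% at AT, and 5.98% were called lower at AT. The part of the macrophage markers in the level of the members was not tested.

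The 9 T cell markers summed to 39.5 to 436 in BAT, with 173 in Cold 1, and to 166 to 2894 in thyroid tissue, with 283 in Cold 1, which ranked 8 of 12 treated lambs there. Of 8 tested T cell markers in thyroid tissue, CD2 was called higher in cold and at AT, and none of 4 was called in BAT. The 4 NK cell markers summed to at most 181 and the 7 B cell markers to at most 263 in any library, and Cold 1 was not the highest library for either in either tissue. Of 2 tested B cell markers in thyroid tissue, CD22 was called higher in cold (log2FC 3.31 ± 0.93, adjusted p = 0.0248) and at AT (3.49 ± 0.93, adjusted p = 0.018). The 7 dendritic cell markers summed to 8288 in BAT and 2849 in thyroid tissue of Cold 1, which ranked 7 and 5 of 12. The controls used had 8444 and 9071 in BAT and 3360 and 3463 in thyroid tissue, and Control 2 had 2119 and 3361. In thyroid tissue Cold 2 to Cold 6 had 2451 to 2905 and AT lambs 2381 to 3948. Of 5 dendritic cell markers tested there, 3 had a log2FC above 0 in cold, and only XCR1 was called higher (2.20 ± 0.66, adjusted p = 0.0319). The 6 neutrophil markers summed to 160.0 in BAT of Cold 1, the highest treated lamb, and to 144 in its thyroid tissue. The controls used had 81.1 and 187 in BAT and 189 and 319 in thyroid tissue, and Control 2 had 632.5 and 1376. Antigen presentation genes, many of which interferon gamma induces, summed to 12737 and 13168 in BAT of the controls used and 45980 in Cold 1, and to 15323 and 22370 in thyroid tissue of the controls used and 60680 in Cold 1. The other treated lambs had 13601 to 39338 (BAT) and 17206 to 53211 (thyroid tissue), so Cold 1 was again highest in both tissues. Of 12 tested in thyroid tissue, CD74 and CIITA were called higher in cold and at AT, and 0 of 13 were called in BAT. These calls of immune genes in thyroid tissue stand beside 1.89% of all genes called higher in cold and 1.83% at AT.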

How the data were processed

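Poly(A) RNA was sequenced in read pairs. Per the submitters' processing notes and methods, the authors trimmed reads with Trimmomatic (0.39), aligned them with STAR (2.7.7a) to Oar_rambouillet_v1.0 and counted them with featureCounts of Subread (2.0.0), multimapping reads included. Strand use is not given in the sources used here. The deposited values are raw counts per gene and library, and p-values measure the spread between lambs. Here, counts were divided by size factors from ACTB, RPL19 and HUWE1 over 14 libraries of a tissue (0.465 to 1.84 in BAT, 0.632 to 1.21 in thyroid tissue). Tests used edgeR (4.0.16, robust quasi-likelihood, R 4.3.3) in 1 fit of 3 groups per tissue, on genes reaching 10 reads in 10 or more libraries, and p-values were adjusted by Benjamini-Hochberg over all genes tested. All tests are two-sided. The SE was taken as the absolute log2FC divided by the square root of F. Control 2 was left out as the control that the study's analysis does not hold. DESeq2 (1.42.0) was an alternative. Correlations used a pseudocount of 1 and 100000 permutations (Python 3.11.15, numpy 2.4.6). Lambs are the replicates, and the most alike pair of libraries differed beyond counting noise (chi-square divided by its degrees of freedom, 48.3 in BAT, 31.9 in thyroid tissue). Chromosome names came from symbols shared with RefSeq. Scripts were tested on simulated data. The members, the other gene lists and the comparisons were chosen with earlier results of these data known. Values per library are given for ISG15, MX1, MX2, IFI6, IFIT3, RSAD2, IRF7, CXCL10 and the 3 called members with the largest log2FC in each comparison, and for further members chosen after their values were seen. Other genes were named from the lists if called, or as the 10 most like the members, of which 1 is not reported here.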

Additional observations from a re-analysis of the deposited data

Results flagged for a closer look

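Within groups of 6 lambs, a value was looked at again where its gap to the nearest other lamb, divided by the range of the group on the log2 scale, was above Dixon's critical value for 6 samples, which chance passes in about 1 group in 20. In thyroid tissue of cold lambs, Cold 1 stood apart in this way in IRF7 (0.759), MX2 (0.734), IFIT3 (0.687), CXCL10 (0.646) and RSAD2 (0.635), and in the level of the whole list (0.691). In BAT of cold lambs it stood apart in MX2 (0.633). Over all 40 members, the critical value was passed in 19 members in thyroid tissue and 8 in BAT of cold lambs, each time by Cold 1. In AT lambs it was passed in 1 and 3 members, by AT 5 in thyroid tissue and by AT 2, AT 4 and AT 6 in BAT. The same count was not made over all genes, and the members varied together, so these members are not separate cases.

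The change from the controls differed between the tissues in IRF7, by 2.57 on the log2 scale in cold and 2.40 at AT, and in IFIH1, by 1.25 at AT, each larger in BAT.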

How the results depend on the processing

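The counts of members called moved most with the libraries used. Leaving out 1 lamb at a time gave 0 to 15 calls in BAT in cold, 0 to 22 at AT, 0 to 18 in thyroid tissue in cold and 0 to 20 at AT, and 0 calls each time in both comparisons of cold with AT. With a lone control, that sample is assumed to vary like the other groups. With only the 2 groups compared, calls were 4 and 17 in BAT and 2 and 16 in thyroid tissue, for cold and AT in this order. With all 3 controls they were 30, 24, 20 and 12, and, chosen after seeing the data, with all 3 controls and without Cold 1 they were 26, 28 and 19 in BAT cold, BAT AT and thyroid AT. The DESeq2 test called 28, 20, 21 and 13. TMM and median-of-ratios scaling each called 21 in BAT in cold and 3 in thyroid tissue at AT. A filter of 1 read in any library called 7 in BAT and 2 in thyroid tissue at AT. The RNA integrity number as a covariate kept each count within 1.5 times, but the sizes in thyroid tissue fell. There the median log2FC of the members went from 1.37 to 1.10 in cold and from 1.04 to 0.64 at AT. In BAT it went from 1.82 to 1.81 in cold and from 1.46 to 1.45 at AT. With this covariate 6 of 35 calls were lost. These were CMPK2 and DHX58 in BAT in cold, EPSTI1 and IFIH1 in BAT at AT, RNF213 in thyroid tissue in cold and IFI44L there at AT. For the difference between tissues, the counts in cold and at AT were 4 and 4 with all 3 controls and 0 and 0 with no replicate block, the AT count was 1 with TMM, with median-of-ratios and with the filter of 1 read, and leaving out 1 lamb gave 0 to 1 in cold and 0 to 3 at AT. For the correlation of tissues, calls were 25 over all 15 lambs, 0 with Spearman's rho, 0 with rho and without Cold 1, chosen after seeing the data, and 0 to 6 leaving out 1 lamb. The causes were not tested. No called member changed direction under any alternative run. With 2 controls, the comparisons with controls have few degrees of freedom, and low control counts limit the sizes for MX2 and CXCL10.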
